A study of Mus musculus with 6 samples.

Results

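The genes described are the 9 that encode the core of the cellular oxygen sensor: the prolyl hydroxylases Egln1, Egln2 and Egln3, the asparaginyl hydroxylase Hif1an, the ubiquitin ligase receptor Vhl, the HIFα subunits Hif1a, Epas1 and Hif3a, and their partner Arnt. They were taken by gene symbol, with no threshold on their values although earlier results of these data were known, and all 9 were found among the 20066 genes measured, of which 14257 are protein coding. Total RNA was sequenced from cardiomyocytes (CMs) of C57BL/6 mice aged P0-1, cultured with the solvent DMSO (3 libraries) or with cell-permeable α-ketoglutarate (αKG; 3 libraries) for 96 h. The labels give 100 µM αKG, whereas the study's methods give another concentration for an octyl ester of αKG, so the dose is uncertain. Per the methods, hearts of newborn pups were dissociated and the cells cultured on fibronectin. The methods take a neonatal sample to be 1 preparation of cells from the hearts of several pups combined, so no library stands for a single animal. The labels do not tie the libraries to preparations, and the p-values measure the spread between these 6 libraries.

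α-Ketoglutarate is a substrate that 2-oxoglutarate-dependent dioxygenases use together with oxygen and iron. The EGLN enzymes belong to this family. They hydroxylate prolines of HIFα, the VHL protein then binds the hydroxylated subunit, and HIFα is ubiquitinated and degraded. Hif1an encodes FIH, a dioxygenase of the same kind that hydroxylates an asparagine of HIFα and thereby blocks its binding to the coactivators p300 and CBP. HIFα that escapes both enzymes pairs with ARNT and turns on genes of glucose use, angiogenesis and survival. Egln3 is itself a well-known HIF target. Most of this regulation acts on HIFα protein, which RNA-seq does not measure.

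The 6 libraries held an estimated 4218786 to 4427587 reads in genes for DMSO and 3726069 to 4386075 for αKG. All values below are normalized read counts, scaled by the authors with the size factor of each library and rounded. 1 αKG library stood apart from the other αKG libraries: the mean absolute log2 distance of its genes from the DMSO libraries was 0.244 in αKG replicate 3, against 0.498 and 0.469 in αKG replicates 1 and 2. The log2 fold changes of the 9 genes other than Hif3a, and most counts of calls, are therefore also given without αKG replicate 3. Most other single genes are given with all 6 libraries only. The 12 CM markers were all present, led by Ttn, Ryr2 and Myh6, and their summed value was 81128 to 83867 with DMSO and 85926 to 117283 with αKG. Ttn, the giant sarcomere protein gene, made up most of this sum, and the other 11 CM markers summed to 29559 to 30091 and 30357 to 33808. The median log2 fold change of the 12 was 0.10. Without αKG replicate 3, 7 were called higher and 3 lower (limma), where 19.3% and 17.9% of all genes were. Markers of other cells were also present. The 12 endothelial markers summed to 1856 to 2005 with DMSO and 894 to 1225 with αKG, the 9 fibroblast markers to 3251 to 3434 and 3311 to 7255, and the 8 epicardial markers to 170 to 186 and 105 to 799. The 10 mural markers, led by Abcc9, Cspg4 and Acta2, summed to 4306 to 4415 and 4613 to 5027. Of 10 macrophage markers 5 were measured, led by Mrc1, Cd68 and Lyz2, and summed to at most 41 in any library, and of 6 erythroid markers 1 was measured (Alas2, at most 4).

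No oxygen-sensor gene passed the test between αKG and DMSO when all 6 libraries were used (limma, 0 of 9 with an adjusted p under 0.05), where 3.78% of all genes did. limma-voom on estimated reads also called 0 of 9. At an unadjusted p under 0.05, 4 of 9 passed (Epas1, Egln3, Egln2 and Hif1an), against 28.1% of all genes. Of these, 1 was higher and 3 lower, against 15.7% and 12.4% of all genes. In 5 of 9 the values of the groups did not overlap, against 28.3% of all genes, and 4 of these 5 were lower with αKG, against 14.6% of all genes. Without αKG replicate 3, 5 of 9 were called, against 37.2% of all genes: Egln3 was higher, and Egln2, Hif1an, Vhl and Epas1 were lower, where 19.3% of all genes were called higher and 17.9% lower. The shares of all genes, here and below, include genes with few reads. Of the 20066 genes, 13409 had a mean of at least 10, as did all of the 9 except Hif3a. The shares among genes of like depth were not computed, so these counts do not show an excess. No test set these counts against the background, and 9 genes are few, so the genes are described singly. The median log2 fold change was -0.09 over the 9 genes and 0.04 over all genes, and 3 of the 9 lay above 0.

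**Figure D1:**
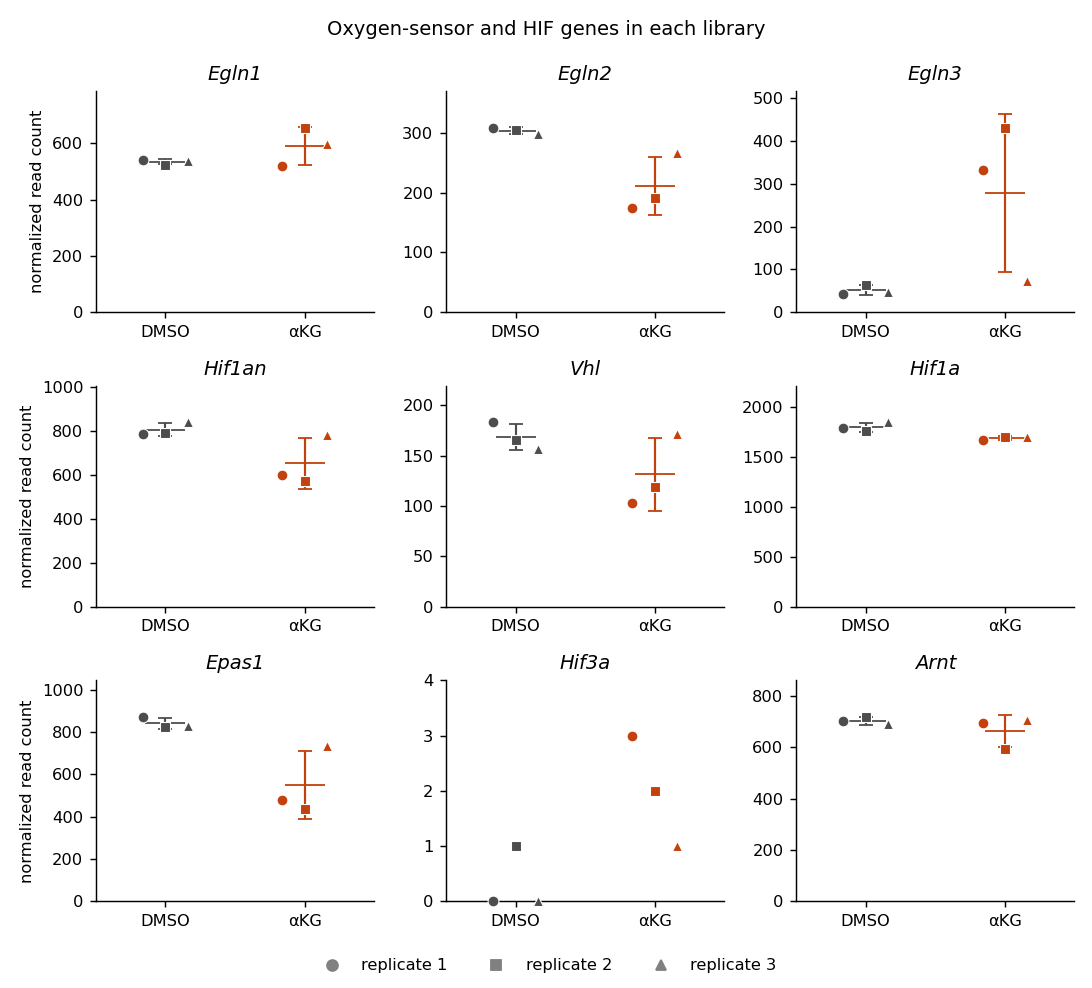
Normalized read count (y axis, from 0) of the 9 oxygen-sensor and HIF genes in the 3 DMSO and 3 αKG libraries; symbols mark replicates 1 to 3, and the bars give mean ± SD except for Hif3a, which is near 0. In Egln2, Egln3, Hif1an, Vhl and Epas1, αKG replicate 3 (triangle) lies nearest the DMSO libraries, while Hif1a and Arnt stay close to their DMSO level in most αKG libraries.

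Levels of different genes can be compared only per length, so each value was divided by the length of the gene's merged exons in kb. On this scale the order with DMSO was Hif1a (304.2 normalized reads per kb), Epas1 (150.6), Egln1 (148.6), Hif1an (121.6), Egln2 (108.6), Arnt (87.8), Vhl (56.3), Egln3 (19.4) and Hif3a (0.0497). Epas1 (147.4 to 155.8 per kb) and Egln1 (145.8 to 150.3 per kb) overlapped between DMSO libraries, and no other neighbours in this order did. With αKG the order was less distinct. Hif1a led again with 282.2 to 287.8 per kb, and Egln1 followed with 144.7 to 182.2 per kb. Egln3 spread from 27.4 to 161.9 per kb over the αKG libraries, which overlapped the range of every other gene except Hif1a and Hif3a. Per kb, the sensor mRNA of HIF-1α was the most abundant in every library. That of PHD2 came next in every αKG library, and those of HIF-2α and PHD2 came next with DMSO.

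**Figure D2:**
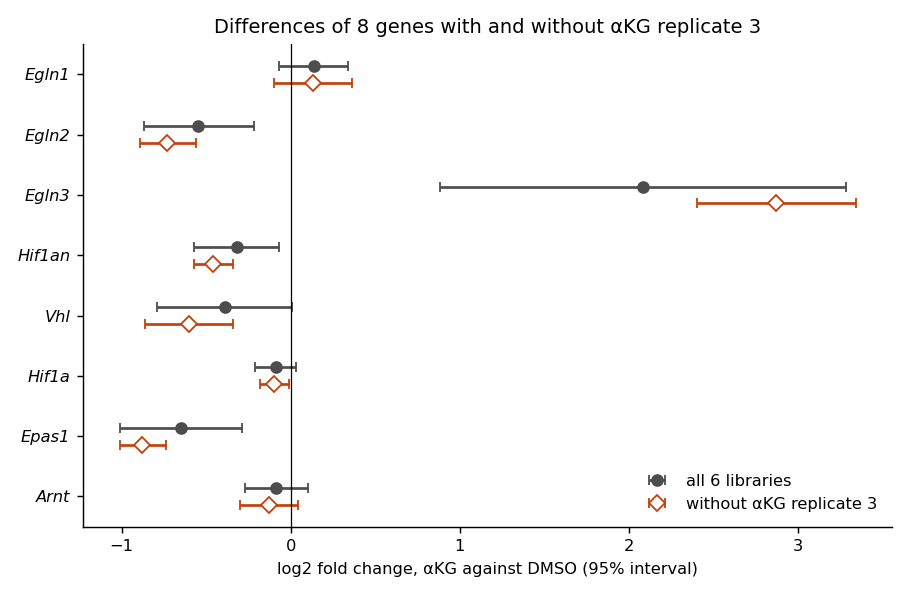
Log2 fold change of 8 genes, αKG against DMSO, on the log2(value + 1) scale (x axis) with 95% intervals from limma; filled circles use all 6 libraries and open diamonds leave out αKG replicate 3. Egln3 is the only gene far to the right (2.08 and 2.87), the intervals of Egln2, Hif1an and Epas1 lie below 0 in both fits, and Hif3a is left out because its counts are too low.

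Egln3 encodes PHD3, the prolyl hydroxylase whose mRNA is the most inducible of the family, and showed the largest difference of the 8 genes with more than a few reads. The gene (ENSMUSG00000035105) lies on the minus strand at chr12:54178981-54203860 (GRCm38). Its normalized read count in replicates 1, 2 and 3 was 43, 64 and 48 with DMSO and 332, 431 and 73 with αKG, the order kept for all genes below. All αKG libraries lay above all DMSO libraries, but αKG replicate 3 did so by little. It was at 141.3% of the DMSO mean, against 642.6% and 834.2% in the other αKG libraries. The means were 51.7 ± 11.0 and 278.7 ± 184.9 (SD, n = 3 each). This gave a log2 fold change of 2.08 ± 0.54 (SE; 95% interval 0.88 to 3.28) and an adjusted p of 0.0594 (limma). Without αKG replicate 3 it was 2.87 ± 0.19, a 7.3-fold rise on the log2(value + 1) scale, with an adjusted p of 0.000497. Over the alternatives the adjusted p ranged from 1.71e-05 to 0.328. Each library held between 45 and 385 estimated reads of Egln3, for which counting alone gives a coefficient of variation of 13.5% with DMSO, where 21.2% was observed.

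Egln2 encodes PHD1, which contributes to HIFα hydroxylation and acts in energy metabolism of muscle. It lies on the minus strand at chr7:27158658-27166802 (ENSMUSG00000058709) and differed in the other direction. Its normalized read count was 309, 305 and 298 with DMSO and 175, 192 and 267 with αKG. The DMSO libraries were nearly level and all αKG libraries lay below them, the αKG replicate 3 library at 87.8% of the DMSO mean. The means were 304.0 ± 5.57 and 211.3 ± 49.0, a log2 fold change of -0.55 ± 0.15 (95% interval -0.87 to -0.22; adjusted p = 0.0641, limma). Without αKG replicate 3 it was -0.73 ± 0.07, with an adjusted p of 0.00104, and over the alternatives the adjusted p ranged from 0.000124 to 0.302.

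Egln1 encodes PHD2, the main oxygen sensor for HIF-1α in most tissues. It lies on the minus strand at chr8:124908587-124949324 (ENSMUSG00000031987). Normalized read counts were 540, 524 and 538 with DMSO and 520, 655 and 597 with αKG. αKG replicate 1 lay below all DMSO libraries and the other αKG libraries above them, so the groups overlapped. The log2 fold change was 0.14 ± 0.09, and its 95% interval of -0.07 to 0.34 takes in both no difference and a modest rise (adjusted p = 0.336, limma). It was 0.13 ± 0.1 without αKG replicate 3. Estimated library weights gave the only call, with an adjusted p of 0.0461.

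The start regions of the 3 prolyl hydroxylase genes are shown because the values of Egln3 and Egln2 lay on opposite sides of DMSO and because Egln3 and Egln1 are known HIF targets. Each sequence is from RefSeq (GRCm38.p6), runs 5′ to 3′ along the gene from 250 bases before to 50 bases after the start of the transcript, and has in capitals the HIF core motif ACGTG or GCGTG on either strand (CACGT or CACGC where it lies on the other strand). The windows, all on the minus strand, are chr12:54203825-54204124 for Egln3, chr7:27166753-27167052 for the outermost start of Egln2 and chr8:124949205-124949504 for Egln1.
Egln3: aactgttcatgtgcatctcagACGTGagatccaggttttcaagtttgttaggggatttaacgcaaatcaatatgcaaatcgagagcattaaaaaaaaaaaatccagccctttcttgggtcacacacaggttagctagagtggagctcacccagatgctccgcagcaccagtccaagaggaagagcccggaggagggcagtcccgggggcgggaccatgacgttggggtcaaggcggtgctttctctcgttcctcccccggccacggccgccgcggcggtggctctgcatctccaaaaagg
Egln2: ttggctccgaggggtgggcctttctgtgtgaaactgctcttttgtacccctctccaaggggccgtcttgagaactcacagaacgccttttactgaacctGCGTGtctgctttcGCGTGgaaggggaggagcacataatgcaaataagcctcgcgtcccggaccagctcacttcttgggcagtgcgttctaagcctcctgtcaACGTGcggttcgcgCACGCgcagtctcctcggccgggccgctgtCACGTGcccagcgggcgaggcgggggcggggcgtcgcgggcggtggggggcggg
Egln1: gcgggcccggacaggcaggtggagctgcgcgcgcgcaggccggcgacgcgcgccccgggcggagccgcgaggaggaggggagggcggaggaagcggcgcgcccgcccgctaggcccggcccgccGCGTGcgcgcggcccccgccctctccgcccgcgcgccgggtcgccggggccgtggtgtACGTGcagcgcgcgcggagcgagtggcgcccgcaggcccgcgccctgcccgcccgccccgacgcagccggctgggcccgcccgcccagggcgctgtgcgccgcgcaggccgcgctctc

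The Egln3 window held 1 match and the Egln1 window 2. The Egln2 window held 6, of which the pair in CACGTG overlap, since this run reads as the motif on both strands. Another Egln2 start held 1 match. Of the other genes with a window, Hif1a held 3 matches, Hif3a 2, Arnt 1, and Hif1an and Vhl 0. At least 1 match is common: 43.8% of the 32851 start windows of the mouse genome table held it, while 3.86% held 4 or more. The windows covered 8 of the 9 genes, all but Epas1. A match is a run of letters in this window and says nothing of whether a factor binds there.

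Set against each other per kb of exon, the prolyl hydroxylases shared their summed mRNA differently in αKG replicates 1 and 2. With DMSO, Egln3 made up 5.84%, 8.62% and 6.58% of the summed value of the 3 genes, and with αKG 37.6%, 39.2% and 9.49%. Its mean share was 7.01% ± 1.44 and 28.8% ± 16.7 (SD, n = 3), a difference of 21.8 percentage points (two-sided exact permutation test, p = 0.1, which is the smallest p that 3 against 3 libraries allow). The share of Egln2 was 39.9%, 39.1% and 38.8% with DMSO and 18.8%, 16.6% and 33.0% with αKG (exact permutation p = 0.1). Both shares were thus separate between the groups. Egln1 made up 52.3% to 54.6% with DMSO and 43.6% to 57.5% with αKG, which overlapped (exact permutation p = 0.4). Over the 9 such comparisons of shares, sums and their ratio, the adjusted p was 0.113 or higher. The summed level of the 3 enzymes was 276.8, 278.8 and 274.2 per kb with DMSO and 331.9, 412.7 and 288.9 per kb with αKG.

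**Figure D3:**
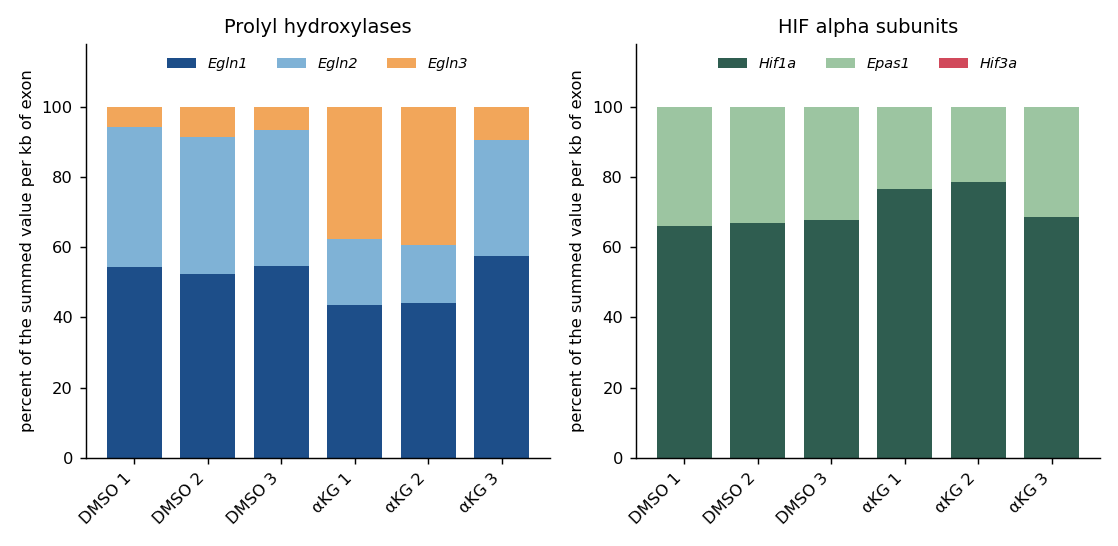
Share of each gene in the summed normalized read count per kb of exon (y axis, percent) of the 3 prolyl hydroxylases (left) and the 3 HIFα subunits (right) in each of the 6 libraries (x axis). The Egln3 share reaches 37.6% and 39.2% in αKG replicates 1 and 2 and 9.49% in αKG replicate 3, the Epas1 share is lower in the αKG libraries, and Hif3a is too low to be visible.

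Like Egln3, the summed fibroblast and epicardial markers stood higher in αKG replicates 1 and 2 than in αKG replicate 3. In αKG replicates 1, 2 and 3 the summed fibroblast markers stood at 216.6%, 211.6% and 98.9% of the DMSO mean, and the summed epicardial markers at 454.0%, 419.9% and 59.7%. This pattern was not particular to them, though weaker in the CM markers. The summed CM markers stood at 137.9%, 141.7% and 103.8%, and at 113.6%, 111.4% and 102.0% when Ttn was left out. Over all genes, 7466 were called without αKG replicate 3, against 759 with all libraries (limma). Of the 9 fibroblast markers, led by Col1a1, Col1a2 and Col3a1, 0 passed the test with all libraries and 5 had an unadjusted p under 0.05 (limma), and 7 were called higher without αKG replicate 3. Of the 8 epicardial markers, led by Upk1b, Upk3b and Aldh1a2, the numbers were 0, 1 and 8. Of all genes, 3.78% passed with all libraries and 15.7% were higher at an unadjusted p under 0.05 (limma). Without αKG replicate 3, 19.3% were called higher. No marker of either list was at 0 in all libraries. Their part in the Egln3 result was not tested, and in such bulk cultures a different number of cells of a type and a different amount of RNA per cell cannot be told apart. In αKG replicate 3, Egln3 was at 73, against at most 64 with DMSO. The fibroblast sum lay within its DMSO range there, and the epicardial sum below its DMSO range.

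Hif1an, the asparaginyl hydroxylase gene, lies on the plus strand at chr19:44562850-44576274 (ENSMUSG00000036450). The libraries gave normalized read counts of 785, 788 and 837 with DMSO and 597, 573 and 782 with αKG. αKG replicate 3 lay just under the lowest DMSO library, and the other αKG libraries at 74.3% and 71.3% of the DMSO mean. The log2 fold change was -0.32 ± 0.11 (95% interval -0.57 to -0.07; adjusted p = 0.111, limma), and without αKG replicate 3 it was -0.46 ± 0.05 with an adjusted p of 0.00156.

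Vhl encodes the part of the ligase that recognizes hydroxylated HIFα and lies on the plus strand at chr6:113623959-113631633 (ENSMUSG00000033933). Normalized read counts were 183, 166 and 157 with DMSO and 103, 119 and 172 with αKG. αKG replicate 3 lay within the DMSO range, at 102.0% of the DMSO mean, and the other αKG libraries below it. The log2 fold change was -0.39 ± 0.18 (95% interval -0.79 to 0.01; adjusted p = 0.19, limma), against -0.60 ± 0.11 without αKG replicate 3, where the adjusted p was 0.00731. Vhl, Egln2 and Hif1an thus each had their lower values in αKG replicates 1 and 2.

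Epas1 encodes HIF-2α, the HIFα subunit prominent in endothelium, and had the smallest p of the 9 genes. It lies on the plus strand at chr17:86753700-86833410 (ENSMUSG00000024140). The libraries gave normalized read counts of 871, 824 and 830 with DMSO and 480, 437 and 733 with αKG. All αKG libraries lay below all DMSO libraries, at 57.0%, 51.9% and 87.1% of the DMSO mean. The means were 841.7 ± 25.6 and 550.0 ± 159.9 (SD, n = 3 each). The log2 fold change was -0.65 ± 0.16 (95% interval -1.01 to -0.29; adjusted p = 0.0544, limma). It was -0.88 ± 0.06 without αKG replicate 3, with an adjusted p of 0.000452. The adjusted p ranged from 1.85e-05 to 0.307 over 15 alternatives, 3 of which called the gene. The DMSO libraries spread by 3.04% (coefficient of variation), near the 3.35% that counting alone gives, whereas the αKG libraries spread by 29.1%.

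Endothelial markers moved in the same libraries. Of the 12 markers, 9 fell with αKG (limma, adjusted p under 0.05), among them the 3 most abundant: Cdh5, the endothelial cadherin, by 1.04 ± 0.16 on the log2 scale, Kdr, the main VEGF receptor, by 1.14 ± 0.21, and Pecam1, an endothelial adhesion molecule, by 1.10 ± 0.14. Of all 20066 genes, 191 were called lower and 568 higher by this test. Without αKG replicate 3, 9 of the markers were called lower and 1 higher, where 17.9% and 19.3% of all genes were. The summed markers stood at 53.4%, 46.4% and 63.6% of the DMSO mean in αKG replicates 1, 2 and 3, and none of the 12 was at 0 in all libraries. Epas1 amounted to 43.4%, 44.4% and 43.3% of this sum with DMSO and to 46.7%, 48.9% and 59.8% with αKG (exact permutation p = 0.1, the smallest possible). Epas1 thus stood below its DMSO level by less than the marker sum did in every αKG library, most clearly in αKG replicate 3. The part of endothelial cells in the Epas1 result was not tested.

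**Figure D4:**
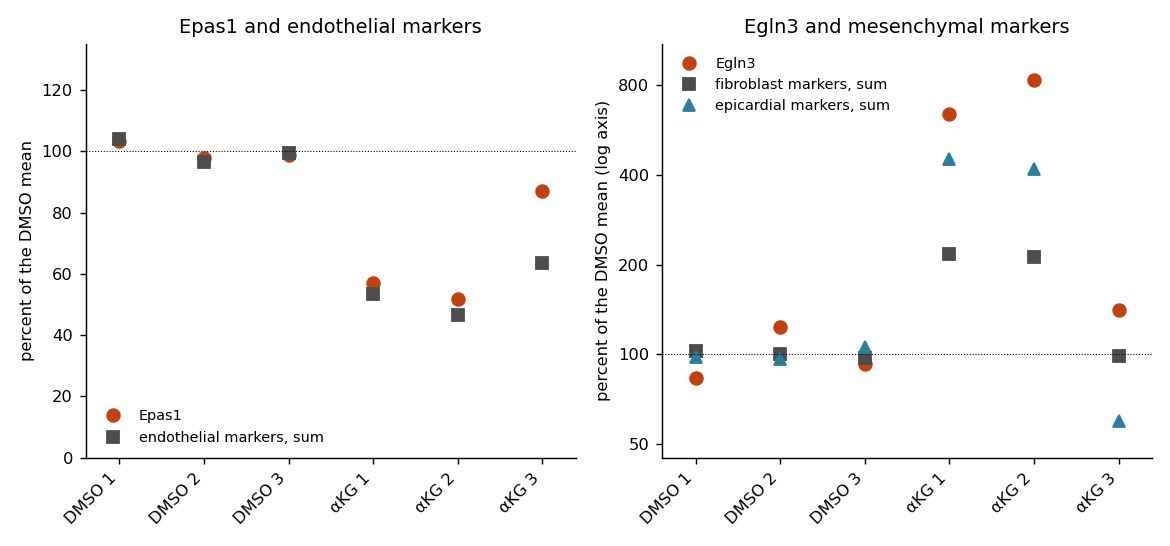
Percent of the DMSO mean in each of the 6 libraries (x axis) for Epas1 and the summed endothelial markers (left, linear axis) and for Egln3 and the summed fibroblast and epicardial markers (right, log axis); the dotted line is 100%. Epas1 and endothelial markers are both low in αKG replicates 1 and 2 and part in αKG replicate 3 (87.1% against 63.6%). In αKG replicate 3, Egln3 is at 141.3%, the fibroblast sum at 98.9%, near DMSO, and the epicardial sum at 59.7%.

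Hif1a encodes HIF-1α, the broadly expressed subunit, and varied least of the 9 genes between the αKG libraries (coefficient of variation 1.08%). It lies on the plus strand at chr12:73901375-73947530 (ENSMUSG00000021109). Normalized read counts were 1786, 1753 and 1842 with DMSO and 1664, 1694 and 1697 with αKG. All αKG libraries lay slightly below all DMSO libraries, and αKG replicate 3 was close to the other αKG libraries (92.8%, 94.4% and 94.6% of the DMSO mean in replicates 1, 2 and 3). The log2 fold change was -0.09 ± 0.05 (95% interval -0.21 to 0.03), and -0.10 ± 0.04 without αKG replicate 3. The adjusted p of 0.282 (limma) reached 0.0786 at its lowest over the alternatives.

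The antisense gene Gm15283 (ENSMUSG00000087700), named after its values were seen, shares 330 exonic bases with Hif1a. Its normalized read count was 4, 5 and 4 with DMSO and 44, 59 and 2 with αKG, with a log2 fold change of 1.92 ± 0.94 (adjusted p = 0.215, limma) and of 3.29 ± 0.27 without αKG replicate 3 (adjusted p = 0.000791). Whether strand was used in counting is not stated, and reads of more than 1 gene were left out, so the values of both genes are uncertain where they overlap. The other genes that share exonic bases with one of the 9 lie on Hif1a and Egln2, share 148 and 11 bases and were not analysed here.

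The balance of the HIFα subunits leaned further to Hif1a in the αKG libraries. Per kb of exon, Hif1a made up 66.0%, 66.8% and 67.8% of the summed HIFα value with DMSO and 76.6%, 78.5% and 68.7% with αKG, and Epas1 34.0%, 33.1% and 32.2% against 23.3%, 21.4% and 31.3%. The groups did not overlap. The mean Epas1 share was 33.1% ± 0.876 and 25.3% ± 5.26 (SD, n = 3), a difference of -7.79 percentage points (exact permutation p = 0.1, the smallest possible). The summed HIFα value was 444.9 to 460.9 per kb with DMSO and 365.8 to 419.1 per kb with αKG, and its ratio to the summed prolyl hydroxylases was 1.66, 1.6 and 1.68 with DMSO and 1.11, 0.886 and 1.45 with αKG. The ratio of HIFα to prolyl hydroxylase mRNA was lower in every αKG library than in any DMSO library, least so in αKG replicate 3.

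Hif3a encodes a HIFα subunit that can oppose the other subunits and was barely detectable. It lies on the minus strand at chr7:17031507-17062427 (ENSMUSG00000004328). The libraries gave normalized read counts of 0, 1 and 0 with DMSO and 3, 2 and 1 with αKG. This amounts to 1 estimated read over the DMSO libraries and 6 over the αKG libraries, a ratio of 6.48 with an exact 95% counting interval of 0.786 to 298.1 after allowing for depth. No difference was detectable at this depth (adjusted p = 0.18, limma).

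Arnt encodes HIF-1β, the constitutive partner of the HIFα subunits, and lies on the plus strand at chr3:95434388-95497240 (ENSMUSG00000015522). Its normalized read count was 701, 718 and 690 with DMSO and 694, 594 and 705 with αKG. Only αKG replicate 2 stood below the DMSO range, at 84.5% of the DMSO mean. The log2 fold change was -0.09 ± 0.08 (95% interval -0.27 to 0.10; adjusted p = 0.513, limma) and -0.13 ± 0.07 without αKG replicate 3, and the lowest adjusted p over the alternatives was 0.053.

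The profiles most like those of the 3 genes with the smallest p were sought among 8294 genes with a mean of at least 100, by the root mean square difference of the centred log2 values over the 6 libraries. Epas1 was followed most closely by Podxl2, a sialomucin (283, 275 and 279 with DMSO, 157, 148 and 257 with αKG, difference 0.036), Fgf13, which regulates sodium channels in CMs (0.037), and Prkab1, a subunit of the kinase AMPK (0.038). Egln2 was followed by Pja1, a ubiquitin ligase (473, 472 and 459 with DMSO, 275, 310 and 405 with αKG, difference 0.029), Tmem98 (0.03) and Rasl10b (0.032). No gene followed Egln3 as closely, but this measure grows with the size of a change and with counting noise. Egln3 had the largest change and the fewest DMSO reads of the 3, so its larger distances do not show a more individual profile. The nearest to Egln3 were Col11a1, a fibrillar collagen gene (82, 80 and 84 with DMSO, 436, 454 and 88 with αKG, difference 0.297), and Casq1, a calcium-binding protein of the sarcoplasmic reticulum (0.364). All of these genes were measured in the same 6 libraries, and each had αKG replicate 3 between the DMSO libraries and the other αKG libraries.

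The other genes of the pathway were read from 6 lists. Of the 112 genes listed 108 were measured, and 2 passed the test with all libraries, both higher (limma; 3.78% of all genes were called). The calls were 48 higher and 21 lower without αKG replicate 3, where 19.3% of all genes were called higher and 17.9% lower. No test set any list against this background. The components of the VHL ligase (5 of 5 measured) gave 0 calls and a median log2 fold change of -0.20. Rbx1, the RING subunit of the ligase, stood at 245, 253 and 259 with DMSO and 195, 187 and 241 with αKG (-0.29 ± 0.12, adjusted p = 0.144, limma), and Cul2, its scaffold, at 682, 643 and 669 and at 537, 553 and 646 (-0.20 ± 0.08, adjusted p = 0.155). At an unadjusted p under 0.05 these were the 2 members of the list that were lower, against 12.4% of all genes.

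Further regulators of HIFα (21 of 21 measured) also gave 0 calls, with a median of -0.20, and at an unadjusted p under 0.05, 1 was higher and 5 lower (all genes 15.7% and 12.4%). Limd1, a scaffold that brings PHD2 and VHL together, was at 624, 622 and 648 with DMSO and 431, 435 and 586 with αKG (-0.40 ± 0.12, adjusted p = 0.0771, limma). Crebbp, the coactivator CBP, was at 1689, 1799 and 1733 and at 1521, 1486 and 1627 (-0.17 ± 0.06, adjusted p = 0.105). All αKG libraries lay below all DMSO libraries in both. Without αKG replicate 3, 1 regulator was called higher and 9 lower (all genes 19.3% and 17.9%). The bHLH-PAS relatives of HIF and their coactivators (13 of 15 measured, Sim1 and Sim2 not analysed here) gave 0 calls and a median of 0.44, with 4 higher and 2 lower at an unadjusted p under 0.05 (all genes 15.7% and 12.4%) and, without αKG replicate 3, 4 called higher and 3 lower. This median mixes unlike genes. Npas4, counted as higher, and Npas1 were near the floor, at most 4 and 2 in any library. The coactivators Ncoa1, Ncoa2 and Ncoa3 lay at -0.25, -0.17 and -0.15, and Clock at -0.10. Npas3, a neuronal bHLH-PAS factor, was low, at 8, 7 and 9 with DMSO and 24, 32 and 15 with αKG (1.40 ± 0.35, adjusted p = 0.0564), and Arnt2, a paralog of Arnt, was at 52, 56 and 53 and at 110, 91 and 70 (0.72 ± 0.19, adjusted p = 0.0627). Both were higher in every αKG library than in any DMSO library.

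HIF targets that serve glucose use (22 of 22 measured) gave 0 calls with all libraries and a median log2 fold change of 0.23, with 7 higher and 2 lower at an unadjusted p under 0.05, where 15.7% and 12.4% of all genes were. The smallest p values were those of Pfkp, a phosphofructokinase subunit, at 952, 934 and 915 with DMSO and 1868, 1847 and 1039 with αKG (0.71 ± 0.19, adjusted p = 0.0621, limma), and of the hexokinase gene Hk1, at 1626, 1606 and 1560 and at 1248, 1131 and 1472 (-0.32 ± 0.09, adjusted p = 0.0683). The calls were 15 higher and 2 lower without αKG replicate 3, against 19.3% and 17.9% of all genes. Of the other HIF targets (39 of 41 measured, Car12 and Epo not analysed here) 1 rose and the median was 0.23. This was Vldlr, a lipoprotein receptor, at 1405, 1368 and 1492 with DMSO and 2127, 2320 and 1772 with αKG (0.54 ± 0.09, adjusted p = 0.026). At an unadjusted p under 0.05, 12 were higher and 1 lower (all genes 15.7% and 12.4%), and without αKG replicate 3 the calls were 26 higher and 2 lower (all genes 19.3% and 17.9%). The median difference of this list from DMSO was 0.45 and 0.53 in αKG replicates 1 and 2 and -0.09 in αKG replicate 3. In the same libraries the median difference was 0.83, 0.77 and 0.00 for the fibroblast markers and 2.25, 2.03 and -0.79 for the epicardial markers. The list holds genes of collagen processing such as Lox, Loxl2, Plod2 and P4ha1, and the part of these cells in its values was not tested.

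Of 8 survival genes, all measured, 1 rose and the median was 0.01. Bcl2, which opposes apoptosis, was at 312, 301 and 283 with DMSO and 506, 493 and 477 with αKG (0.72 ± 0.08, adjusted p = 0.00616, limma). It stood at a like level in all 3 αKG libraries. At an unadjusted p under 0.05, 2 survival genes were higher and 3 lower (all genes 15.7% and 12.4%), and the counts of calls without αKG replicate 3 were also 2 and 3 (all genes 19.3% and 17.9%). The adjusted p of Bcl2 ranged up to 0.224 and that of Vldlr up to 0.255 over the alternatives, and leaving out any 1 of the 5 libraries other than αKG replicate 3 left 0 or 1 call over all 6 lists.

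**Figure D5:**
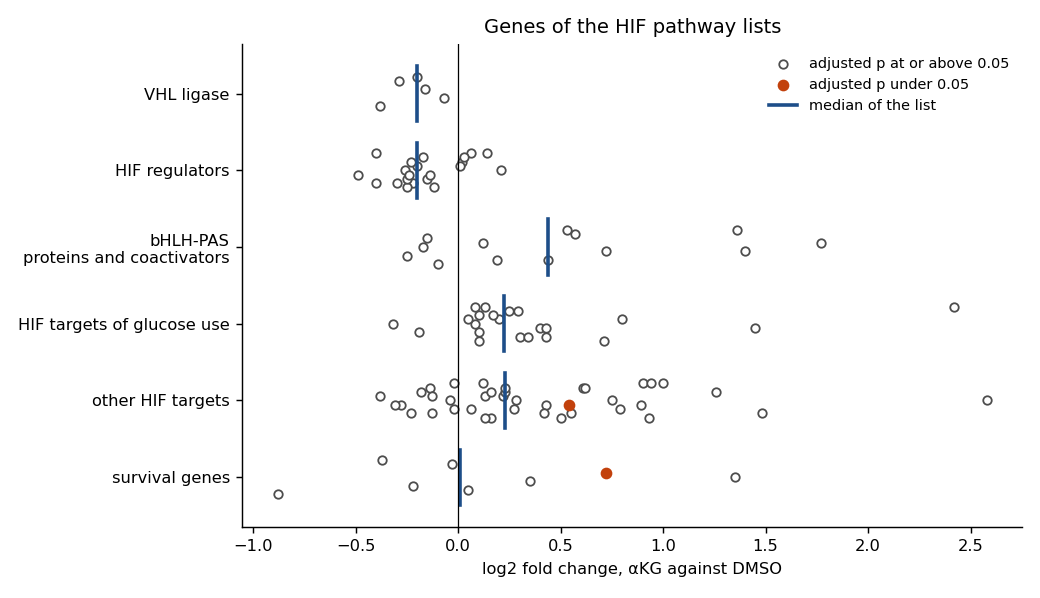
Log2 fold change, αKG against DMSO, on the log2(value + 1) scale (x axis) of the 108 measured genes in 6 lists around the HIF pathway (rows); each circle is a gene, filled where the adjusted p was under 0.05, and the vertical bars are the list medians. Only Vldlr and Bcl2 are filled, the medians of VHL ligase and HIF regulators lie at -0.20, and those of both target lists at 0.23.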

How the data were processed

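Total RNA of neonatal CMs was sequenced (3 DMSO and 3 αKG libraries, stranded total RNA kit per the labels). Per the submitters' processing notes, the authors used Trimmomatic 0.39, STAR 2.7.10a, featureCounts 2.0.3 and DESeq2 1.30.1. Per the methods, which describe RNA-seq of adult CMs, a gene's value on mm10 (GRCm38) rests on reads that touch its exons and can be given to that gene and place alone. The deposited values are treated as a score: the authors had scaled read counts with the size factor of each library and then rounded them to integers. Negative binomial count models were therefore not used, and estimated reads served limma-voom (an alternative), the depths and the counting error. Dividing by the value of 1 read, estimated from the steps of the values (0.9259 to 1.1188), gave estimated reads. Counting intervals cover counting error only, because PCR copies cannot be told from separate molecules here.

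All 20066 genes and 6 libraries entered 1 limma 3.58.1 model (R 4.3.3) of log2(value + 1) with treatment as its only term and a variance trend, with no filter, and p-values were adjusted by Benjamini-Hochberg over all genes. The pseudocount understates changes of low genes. The script was tested on simulated data. Exon lengths came from GENCODE M21, whose gene positions equalled those deposited for 99% of genes. Shares per kb were compared by two-sided exact permutation tests (Python 3.11.15, scipy 1.17.1). The rule for naming genes took every member, up to 3 called genes per direction of each list or else the 2 with the smallest p, the 3 markers with the highest mean of each marker list, and the 3 nearest profiles of the 3 members with the smallest p. 1 of these profiles is not reported here. The members and lists were chosen with earlier results of these data known. Alternatives covered the variance trend, a filter, pseudocount, scaling, quantile normalization, limma-voom, library weights, a replicate block, averaged DMSO libraries and each library left out.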

Additional observations from a re-analysis of the deposited data

How the results depend on the processing

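Of 134 values of single genes of the sensor under 15 settings, 122 kept their direction and side of the threshold, 12 gained a call and 0 reversed. The number of the 9 genes called was 0 with all libraries, 1 with libraries scaled to the same total (Epas1, adjusted p = 0.048, limma), 6 with estimated library weights, which gave αKG replicate 3 the lowest weight (0.199), and 4 at an unadjusted p. Leaving out 1 library gave 0 to 5, and the 5 came only without αKG replicate 3. Of the 108 genes of the lists, 2 were called with all libraries, 0 without the variance trend, 73 with library weights, 0 with DMSO replicates 2 and 3 averaged, 41 at an unadjusted p and 0 to 69 with 1 library left out. Over all genes, the 759 calls became 27 without the trend, 346 with a pseudocount of 0.1, 362 with limma-voom, 8085 with library weights, 19 with averaged DMSO libraries and 7466 without αKG replicate 3, but 0 without αKG replicate 1 or without αKG replicate 2, and 152, 3 and 4 without DMSO replicates 1, 2 and 3. The cause of these differences was not tested. The median log2 fold change of all genes lay between -0.06 and 0.06 in every setting.

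Same-numbered DMSO and αKG libraries did not deviate together in every pair (correlations -0.074, 0.136 and 0.002 over 13409 genes). With so few libraries, these values cannot decide whether such libraries shared a preparation, and the labels do not tell. The numbers are used here only to name libraries. With the replicate block, 0 of the 9 genes, 1 gene of the lists and 46 genes in all were called. The paired exact permutation p of both shares was 0.25, the smallest that so few pairs allow. The difference in the Egln3 share ranged from 16.5 to 31.4 percentage points and that in the Epas1 share from -10.8 to -5.81 with 1 library left out. Depth limits mainly Hif3a and, less so, Egln3.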

Other observations

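Some HIF targets in the lists, chosen here after their values were seen, stood higher in αKG replicates 1 and 2 and near the DMSO level in αKG replicate 3. Slc16a3, which encodes the lactate exporter MCT4, was at 18, 20 and 25 with DMSO and 233, 285 and 23 with αKG (log2 fold change 2.42 ± 0.76, adjusted p = 0.0891, limma; adjusted p = 0.000259 without αKG replicate 3). Car9, a carbonic anhydrase that is a classical hypoxia marker, was at 0, 3 and 0 and at 26, 15 and 1 (adjusted p = 0.121, limma). Vegfa, the angiogenic growth factor, was at 840, 863 and 910 and at 1350, 1396 and 838 (0.42 ± 0.16, adjusted p = 0.137, limma). Bnip3, which acts in mitophagy, was at 177, 161 and 177 and at 276, 349 and 149 (0.50 ± 0.25, adjusted p = 0.226, limma). Ndrg1 was higher in all 3 αKG libraries, at 121, 129 and 106 with DMSO and 260, 314 and 133 with αKG (0.90 ± 0.27, adjusted p = 0.0809, limma).

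Other genes, likewise chosen after their values were seen, were lower or lie beside a gene of the sensor. Bcl2l11, which encodes the pro-apoptotic protein BIM, was at 451, 470 and 480 with DMSO and 187, 185 and 464 with αKG (-0.88 ± 0.29, adjusted p = 0.0986, limma). Kdm4b, a histone demethylase that uses αKG and is itself a HIF target, was lower in all 3 αKG libraries, at 543, 559 and 566 and at 465, 418 and 461 (-0.31 ± 0.08, adjusted p = 0.0527, limma). Gm42672, a processed pseudogene inside Arnt that shares no exonic base with it, was at 14, 19 and 22 with DMSO and 44, 28 and 23 with αKG (0.73 ± 0.31, adjusted p = 0.165, limma).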
